A study of Homo sapiens with 8 samples.

Results

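The PGC-1 coactivators and the transcription factors through which they act on mitochondrial genes were examined as 10 genes, namely PPARGC1A, PPARGC1B, PPRC1, ESRRA, PPARA, PPARD, NRF1, GABPA, GABPB1 and YY1. They are 10 of the 61806 genes measured. All 10 were found by symbol, 9 were among the 14893 genes tested, and PPARGC1A was too low to test. The 10 genes were chosen by their function and with values of the same comparison of O/A with ethanol already known, among them the large fall of PPARGC1B. The values of the 10 genes are therefore given as a description, with no test.

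The libraries came from wild-type N/TERT-1 cells, a single immortalized line of human epidermal keratinocytes. Ethanol, the solvent, was given to 4 of the 8 cultures, and O/A to the other 4. O/A combines oligomycin, an inhibitor of the mitochondrial ATP synthase, with antimycin A, an inhibitor of complex III of the respiratory chain. The study's treatment lasted 4 hours. The labels give neither this time nor the dose, and they call the libraries biological replicates, which the study's methods describe as 4 independent experiments.

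PGC-1 proteins do not bind DNA themselves. They are recruited by nuclear receptors such as ERRα and the PPARs and by factors such as NRF-1 and NRF-2, and they bring histone acetyltransferases and the Mediator complex to the genes those factors occupy. NRF-1, NRF-2, YY1 and ERRα act on nuclear genes for respiratory chain subunits and for the factors that copy and transcribe mitochondrial DNA, while PPARα and PPARδ act on genes of fatty acid oxidation. PGC-1α is best known from brown fat, muscle and liver, and the family is also expressed outside these tissues.

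Total counts ranged from 17210404 to 20999927 in ethanol and from 17689760 to 19263046 in O/A. Levels of one gene are given as scaled CPM or as FPKM. Scaled CPM is the count per 1e+06 counts of the library after edgeR's TMM scaling. Levels of different genes are compared as FPKM, the deposited value. It divides the count by the library total and the exonic length of the gene, without TMM scaling. The TMM factors were 1.0115 to 1.0216 in ethanol and 0.9821 to 0.9879 in O/A. FPKM therefore places O/A slightly lower against ethanol than scaled CPM does. The log2(FC) is the difference of O/A minus ethanol, with its standard error (SE). Upregulated and downregulated genes are those that passed edgeR's quasi-likelihood test at an adjusted p-value of 0.05 and lie more than 0.25 from 0 in log2(FC). The median log2(FC) of all genes tested was -0.0004. All 8 keratinocyte markers were expressed, with a summed level of 18110 to 18830 scaled CPM in ethanol and 18240 to 18820 in O/A. The 15 markers of fibroblasts, melanocytes, endothelial, immune, fat and muscle cells summed to 23.8 to 27.9 scaled CPM in ethanol and 23.3 to 26.8 in O/A. Of these 15 markers, 2 were expressed highly enough to be tested, 1 of the 4 fibroblast and 1 of the 4 melanocyte markers. The highest count of a fibroblast marker in any library was 557, and that of a melanocyte marker 45. The fibroblast markers summed to 21.1 to 26.3 scaled CPM in ethanol and 22.0 to 24.0 in O/A. MLANA and TYR, 2 of the melanocyte markers, had no count. In bulk RNA, fewer cells of a type and less RNA per cell cannot be told apart.

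The sequences before the starts of PPARGC1B, PPRC1 and PPARD are shown because these genes had the largest changes of the 10. They end 1 base before the start of the gene in the deposited table and lie at chr5:149730048-149730297, chr10:102132790-102132993 and chr6:35342308-35342557 of GRCh38, all on the plus strand. The first was read from the GRCh38 genome and the other two from the RefSeq promoter table for GRCh38.p14.
PPARGC1B: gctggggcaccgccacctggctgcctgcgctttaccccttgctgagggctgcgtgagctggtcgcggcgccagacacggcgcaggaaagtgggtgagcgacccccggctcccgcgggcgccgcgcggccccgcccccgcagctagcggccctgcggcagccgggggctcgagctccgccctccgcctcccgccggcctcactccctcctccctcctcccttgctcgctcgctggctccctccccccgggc
PPRC1: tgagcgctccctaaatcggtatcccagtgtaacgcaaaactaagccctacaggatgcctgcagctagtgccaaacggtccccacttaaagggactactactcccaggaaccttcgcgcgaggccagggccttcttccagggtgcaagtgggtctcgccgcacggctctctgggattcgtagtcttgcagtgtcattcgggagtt
PPARD: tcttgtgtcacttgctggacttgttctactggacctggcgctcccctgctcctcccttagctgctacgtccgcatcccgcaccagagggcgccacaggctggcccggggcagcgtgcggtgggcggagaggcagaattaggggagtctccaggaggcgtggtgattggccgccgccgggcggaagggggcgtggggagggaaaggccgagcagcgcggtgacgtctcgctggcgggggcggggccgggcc

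The 250 bases before each start were searched on both strands for 6 motifs, namely GCGCATGC (NRF1), CCGGAAG (ETS factors, which include GABPA), TCAAGGTCA (ERR), TGACGTCA (CRE), AAGATGGC (YY1) and TTGCATCA (ATF4). No match of one motif overlapped a match of another, and a match is a description of letters and not a bound site. RefSeq entries were matched for 9 of the 10 genes, which gave 12 windows with the start of PPARGC1B in the deposited table. None of the 6 motifs was found in the 3 sequences above. The RefSeq start of PPARGC1B lies 41642 bases after the start in the deposited table, and its window held none of them either.

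Matches to the NRF1 motif were found at ESRRA and at 1 of the 2 starts of PPARA, 2 of 12 windows, against 2.63% of 35116 promoters. Matches to the ETS motif were found at GABPA and at the other start of PPARA, against 8.52% of promoters. The ERR, CRE, YY1 and ATF4 motifs were found in none of the 12 windows and in 0.319%, 1.65%, 1.36% and 0.772% of promoters. The matches at ESRRA and GABPA are shown with capitals marking the motif, which both read on the opposite strand, because these motifs are named for other factors of the pathway or for the gene's own product. They lie at chr11:64305484-64305513 and chr21:25734895-25734924 of GRCh38 (RefSeq, GRCh38.p14, plus strand). The windows were set from RefSeq starts, which can differ from the starts in the deposited table. The match at GABPA lies inside the gene as that table places it, and the match at ESRRA lies across its start there.
ESRRA: ccccctgctttGCATGCGCacggccggccc
GABPA: cctccgctctaCTTCCGGccctggctccgc

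Among the coactivators, PPRC1 was the most abundant, PPARGC1B was expressed at a low level and PPARGC1A was at the detection limit. Both detected members were lower in O/A, PPARGC1B by 6.26-fold and PPRC1 by 1.69-fold. PPARGC1A (ENSG00000109819, chr4:23755041-23904089) encodes PGC-1α, the founding member. It had 1 count in ethanol replicate 1, 1 count in ethanol replicate 2 and 0 counts in the other 6 libraries. A count of 0 allows up to 3 counts, which is 0.143 to 0.174 CPM or 0.0131 to 0.0160 FPKM in these libraries. This limit covers counting error only. At this depth a fall of PPARGC1A in O/A could not have been seen. A rise to 10 counts in all 4 O/A libraries would have been tested, and none was seen.

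PPARGC1B (ENSG00000155846, chr5:149730298-149855022) encodes PGC-1β, a coactivator of ERRα and of other nuclear receptors. It had 296, 293, 260 and 347 counts in ethanol replicates 1 to 4 and 34, 52, 44 and 53 in O/A replicates 1 to 4. As FPKM, it stood at 1.25, 1.29, 1.17 and 1.28 in ethanol and at 0.15, 0.21, 0.18 and 0.23 in O/A. Every O/A library was far below every ethanol library, and the groups did not overlap. The mean was 1.25 ± 0.0544 FPKM in ethanol and 0.193 ± 0.0350 in O/A (SD, n = 4 each). The log2(FC) was -2.65 (SE 0.11), the 8th lowest of the 14893 genes tested. On log2(FPKM + 1) values it was -0.91, a scale that shrinks differences between low levels. The coefficient of variation among O/A libraries was 19.2%, against 14.8% from counting alone. In ethanol its level was above that of 26.7% of the genes tested. A microRNA gene, MIR378A, lies inside PPARGC1B, 2527 bases after its start, and had 1 count over the 8 libraries. The libraries were made from oligo(dT)-selected mRNA, from which the level of a mature microRNA cannot be read.

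PPRC1 (ENSG00000148840, chr10:102132994-102150333) encodes the PGC-1-related coactivator PRC, known as a growth-regulated partner of NRF-1. It stood at 14.24, 14.21, 13.69 and 15.03 FPKM in ethanol and at 8.43, 7.97, 8.41 and 8.0 in O/A. All 4 O/A libraries were below all 4 ethanol libraries. Its counts spanned 1436 to 1924 in ethanol against 865 to 988 in O/A, and its log2(FC) was -0.76 (SE 0.040).

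The makeup of the family also differed between the conditions. The FPKM of PPRC1 was 11 to 11.7 times that of PPARGC1B in ethanol and 34.8 to 56.2 times in O/A. PPARGC1B made up 7.85 to 8.32% of the summed FPKM of the 3 coactivators in ethanol and 1.75 to 2.79% in O/A. The summed FPKM was 14.86 to 16.31 in ethanol and 8.18 to 8.59 in O/A.

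**Figure D1:**
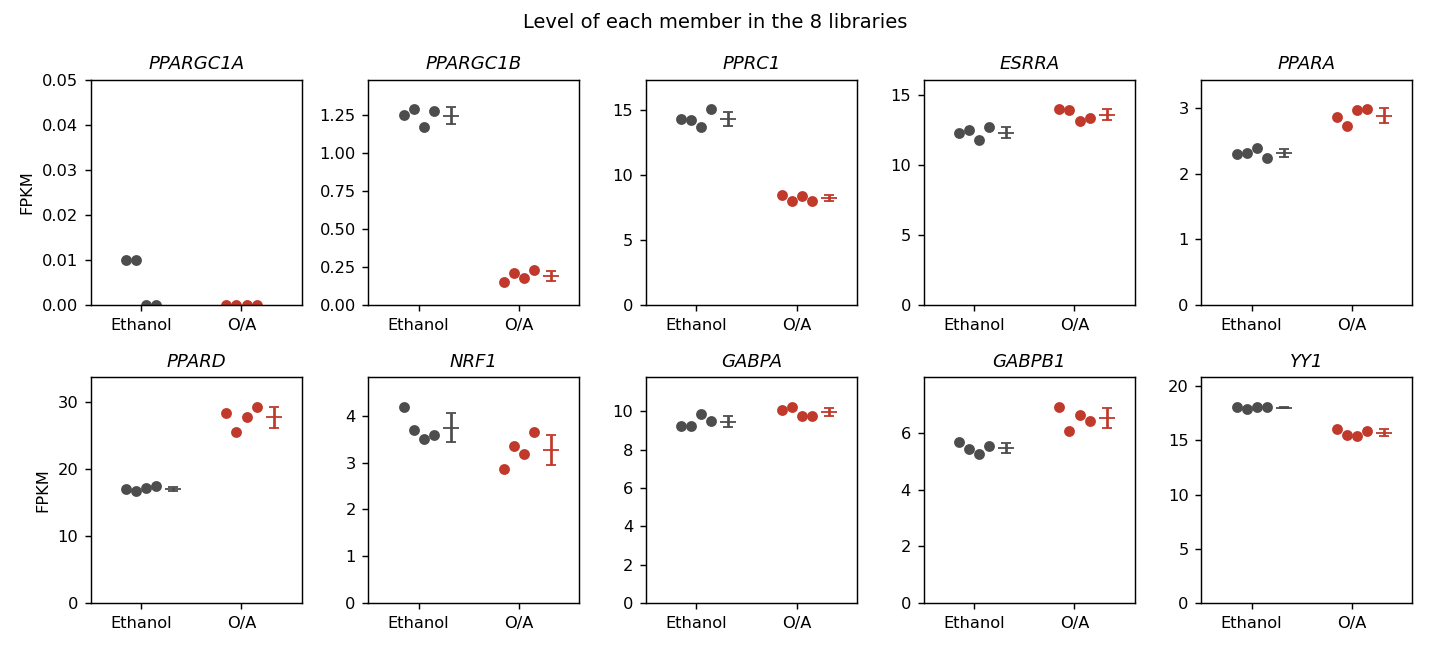
FPKM of the 10 genes, 1 panel a gene, with 1 point for each ethanol (grey) and O/A (red) library and, beside the points, the mean and SD of the 4 libraries (no mean is drawn for PPARGC1A, which had 2 counts in all). PPARGC1B lies between 1.17 and 1.29 FPKM in ethanol and between 0.15 and 0.23 in O/A, PPARD lies between 16.71 and 17.42 in ethanol and between 25.59 and 29.31 in O/A, and the groups of NRF1 overlap; the y axes start at 0 and differ between panels.

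All 3 nuclear receptor genes were higher in every O/A library than in any ethanol library, with PPARD 1.68-fold higher, PPARA 1.29-fold higher and ESRRA within the fold threshold. PPARD (ENSG00000112033, chr6:35342558-35428191) encodes PPARδ, the lipid-activated receptor that is the most widely expressed of the PPARs. It stood at 17.03, 16.71, 17.18 and 17.42 FPKM in ethanol and at 28.33, 25.59, 27.77 and 29.31 in O/A. The groups were far apart, with O/A replicate 2 the lowest of the O/A libraries. Its log2(FC) was 0.74 (SE 0.036), from 1309 to 1630 counts per ethanol library against 2146 to 2384 per O/A library.

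PPARA (ENSG00000186951, chr22:46150521-46243755) encodes PPARα, which acts on genes of fatty acid oxidation in liver and other tissues. It stood at 2.30, 2.32, 2.39 and 2.24 FPKM in ethanol and at 2.86, 2.73, 2.96 and 2.98 in O/A. All O/A libraries were above all ethanol libraries, with a log2(FC) of 0.36 (SE 0.050). On log2(FPKM + 1) values the difference was 0.23, within the threshold. The FPKM of PPARD was 7.19 to 7.78 times that of PPARA in ethanol and 9.37 to 9.91 times in O/A.

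ESRRA (ENSG00000173153, chr11:64305497-64316743) encodes ERRα, an orphan receptor and a main partner of the PGC-1 coactivators. It stood at 12.25, 12.46, 11.75 and 12.68 FPKM in ethanol and at 13.96, 13.88, 13.12 and 13.32 in O/A. The groups did not overlap, but its log2(FC) of 0.19 (SE 0.047) was within the threshold. TRMT112, on the opposite strand, shares 284 bases, 9.16% of the exonic bases of ESRRA. Whether the counting used strand is not given in the sources used here, so reads from the shared bases cannot be told apart. The log2(FC) of TRMT112 was 0.06 (SE 0.034).

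The NRF and YY1 factors had log2(FC) values between -0.15 and 0.29, and of these 4 genes only GABPB1 was past the thresholds. NRF1 (ENSG00000106459, chr7:129611720-129757082), the nuclear respiratory factor of cytochrome c and of many respiratory chain genes, stood at 4.19, 3.70, 3.51 and 3.58 FPKM in ethanol. In O/A it stood at 2.87, 3.36, 3.18 and 3.66. The groups overlapped, since O/A replicate 4 was above ethanol replicates 3 and 4, and the log2(FC) was -0.15 (SE 0.079). It was -0.09 when ethanol replicate 1 was left out and -0.10 without O/A replicate 1 or after quantile normalization. Its coefficient of variation was 8.46% in ethanol and 10.1% in O/A, against 5.91% and 6.36% from counting alone.

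GABPA and GABPB1 encode the DNA-binding and the activating subunit of NRF-2, also called GABP. GABPA (ENSG00000154727, chr21:25734570-25772460) stood at 9.22, 9.25, 9.88 and 9.49 FPKM in ethanol and at 10.05, 10.23, 9.77 and 9.77 in O/A. Its FPKM ranges overlapped while its scaled CPM ranges, 52.3 to 55.6 in ethanol and 57.1 to 59.5 in O/A, did not, and its log2(FC) was 0.12 (SE 0.041), or 0.07 on both FPKM scales. ATP5PF, on the opposite strand, shares 692 bases (12.1%) with the exons of GABPA and had a log2(FC) of -0.02 (SE 0.039). The pseudogene GABPAP held 2.47% as many counts as GABPA, so part of the reads of GABPA could have been counted there.

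GABPB1 (ENSG00000104064, chr15:50275389-50355408) stood at 5.67, 5.44, 5.25 and 5.55 FPKM in ethanol and at 6.92, 6.08, 6.64 and 6.41 in O/A. The groups did not overlap, and the log2(FC) was 0.29 (SE 0.051), close to the threshold. It was 0.24 on log2(FPKM + 0.1) and 0.21 on log2(FPKM + 1) values, within the threshold on both. GABPB1-AS1, an antisense gene, shares 424 bases (7.46%) with the exons of GABPB1 and moved the same way. Its log2(FC) was 0.54 (SE 0.14, adjusted p = 0.0127 in edgeR's quasi-likelihood test), and its part in the value of GABPB1 was not tested. GABPB1-IT1, on the same strand, shares no exonic bases with GABPB1 and had a log2(FC) of -0.12 (SE 0.13).

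YY1 (ENSG00000100811, chr14:100238298-100282788), a zinc finger factor that activates or represses many genes, had the highest FPKM of the 10 genes in ethanol. It stood at 18.08, 17.93, 18.10 and 18.04 FPKM in ethanol and at 16.05, 15.53, 15.39 and 15.88 in O/A. The scaled CPM of the ethanol libraries had a coefficient of variation of 0.53%, below the 1.87% from counting alone. The groups did not overlap, and the log2(FC) of -0.15 (SE 0.029) was within the threshold.

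Of the 9 genes tested, 5 were past the thresholds, against 34.7% of all genes tested. PPARD, PPARA and GABPB1 were higher in O/A (3 genes, against 15.8% of all genes tested), and PPARGC1B and PPRC1 lower (2 genes, against 18.9%). The scaled CPM of the groups did not overlap for 8 of the 9, against 47.6% of all genes tested, with 5 above and 3 below ethanol. Nothing is read from these counts, since the genes were chosen with this comparison known. Nearest to the threshold of 0.25 were GABPB1, past it at 0.29, and ESRRA, within it at 0.19.

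**Figure D2:**
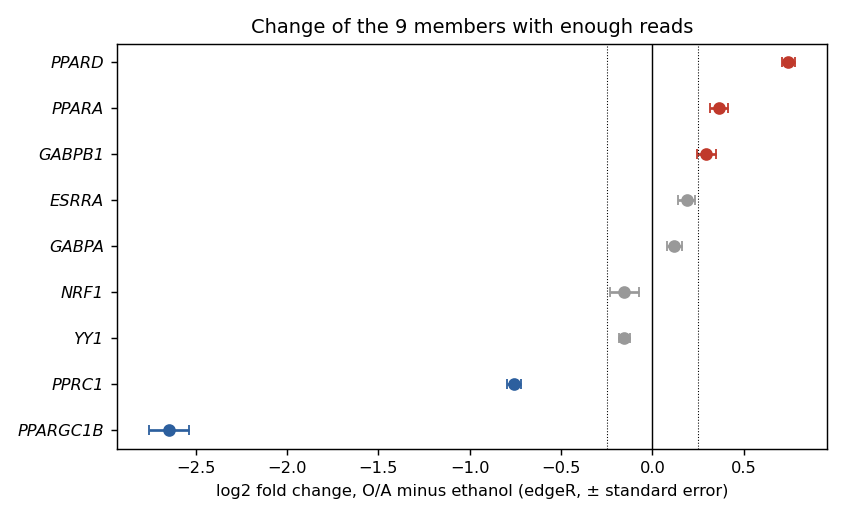
The log2(FC) of O/A against ethanol (x axis) of the 9 genes tested, as points with bars of 1 SE, coloured by whether the gene was upregulated (red), downregulated (blue) or neither (grey), with dotted lines at the threshold of 0.25 in both directions. PPARGC1B lies apart from the other 8 genes at -2.65, PPRC1 follows at -0.76, and PPARD lies at the other end at 0.74.

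The order of the FPKM levels changed at 2 places. In ethanol the order was YY1, PPARD, PPRC1, ESRRA, GABPA, GABPB1, NRF1, PPARA, PPARGC1B and PPARGC1A, and the ranges of neighbours in this order did not overlap. In O/A, PPARD stood above YY1, and PPRC1 stood below ESRRA and GABPA. The ranges of NRF1 (2.87 to 3.66) and PPARA (2.73 to 2.98) then overlapped, and those of the other neighbours did not.

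Tested genes with a symbol and a mean FPKM of at least 1 in either condition were ranked by how closely they followed PPARGC1B. The first 5 over the 8 libraries were PANK1, ZMYM3, MECOM, PPP2R1B and LCMT2, with Pearson's r of 0.997 to 0.998 on log2 scaled CPM. Their log2(FC) was -1.45, -0.94, -1.40, -0.44 and -1.79. The 8 points fall into the 2 conditions, so r reflects that shared difference, and no test is given. Of the other genes examined here, PPRC1 had an r of 0.978 with PPARGC1B and PPARD one of -0.983.

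Other genes of the pathway were taken from 6 lists, and their adjusted p-values are those of edgeR's quasi-likelihood test, adjusted over all genes tested by Benjamini and Hochberg's method. Among DNA-binding partners and cofactors, 6 of 20 genes tested were upregulated and 5 downregulated, with a median log2(FC) of 0.03. Only 6 of the 20 passed after quantile normalization, 2 of them upregulated, and 6 on log2(FPKM + 1) values, 1 of them upregulated. ESRRB, ESRRG, RXRG, PERM1 and HNF4A were too low to test. RXRA, the shared partner of the PPARs and other receptors, stood at 57.9 to 62.4 scaled CPM in ethanol and at 43.7 to 46.9 in O/A, with a log2(FC) of -0.42 (SE 0.042, adjusted p = 3.05e-12). The thyroid hormone receptor gene THRA had a log2(FC) of -0.67 (adjusted p = 2.83e-08, -0.40 on log2(FPKM + 1) values), and MYBBP1A, a repressor of PGC-1α, one of -0.68 (adjusted p = 7.80e-22). PPARG, the third PPAR, stood at 9.32 to 12.6 scaled CPM in ethanol and at 12.97 to 15.75 in O/A, with a log2(FC) of 0.38 (adjusted p = 0.000205). It was 0.18, within the threshold, on log2(FPKM + 1) values.

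Among the cofactors that were higher, CREBBP, a histone acetyltransferase, had a log2(FC) of 0.39 (adjusted p = 0.000225). LPIN1, a phosphatidate phosphatase that also acts with PGC-1α, had a log2(FC) of 0.31 (adjusted p = 8.92e-13), which was 0.24 after quantile normalization and on log2(FPKM + 1) values, within the threshold. NRIP1, the corepressor RIP140, had a log2(FC) of 0.26 (adjusted p = 3.28e-09), which was 0.25, just within the threshold, without O/A replicate 1 and 0.20 to 0.23 on the FPKM scales and with quantile or upper-quartile scaling.

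Among regulators upstream of the PGC-1 genes, 4 of 20 genes tested were upregulated and 4 downregulated, with a median log2(FC) of 0.09. The upregulated genes included the MEF2 factors, which act on the PPARGC1A promoter in muscle. MEF2D had a log2(FC) of 0.66 (adjusted p = 5.55e-19) and MEF2A one of 0.52 (adjusted p = 4.97e-17). SIRT1, the deacetylase of PGC-1α, stood at 25.8 to 30.3 scaled CPM in ethanol and at 38.7 to 41.7 in O/A, with a log2(FC) of 0.50 (adjusted p = 7.51e-12). KAT2A, the acetyltransferase GCN5 that opposes it, had a log2(FC) of -0.28 (adjusted p = 3.73e-06), which was -0.24, within the threshold, without ethanol replicate 1. HDAC4, a class II deacetylase that binds MEF2 factors, had a log2(FC) of -0.55 (adjusted p = 2.18e-05), and MAPK14, the p38 kinase, one of -0.32 (adjusted p = 8.75e-11). HDAC4 was at -0.20, within the threshold, on log2(FPKM + 1) values. CREB1, the cAMP-responsive factor, had a log2(FC) of 0.15, within the threshold (adjusted p = 0.000598), and PRKAA1, a catalytic subunit of AMPK, one of -0.06 (adjusted p = 0.107). With upper-quartile scaling, quantile normalization and both FPKM scales PRKAA1 was at -0.09 to -0.10, with an adjusted p of 0.00868 to 0.0154 from edgeR or limma. On the FPKM scales CREB1 was at 0.10 and 0.09, with an adjusted p of 0.0536 and 0.0526 from limma. MEF2C, PRKAA2 and CAMK4 were too low to test.

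Of the 19 genes for the transcription and replication of mitochondrial DNA, all tested, 8 were downregulated and 1 upregulated, with a median log2(FC) of -0.17. POLRMT, the mitochondrial RNA polymerase, stood at 30.1, 29.5, 28.2 and 27.5 scaled CPM in ethanol and at 15.6, 15.1, 14.9 and 14.3 in O/A. Its groups were far apart, with a log2(FC) of -0.94 (adjusted p = 1.01e-18). TWNK, the replicative helicase, stood at 36.9, 36.1, 39.9 and 35.7 scaled CPM in ethanol and at 22.2, 21.1, 23.0 and 19.6 in O/A. Its groups were also apart, with a log2(FC) of -0.79 (adjusted p = 2.81e-17). POLG2, the accessory subunit of the mitochondrial DNA polymerase, had a log2(FC) of -0.55 (adjusted p = 6.63e-08).

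TFAM, which packages mitochondrial DNA and starts its transcription, had a log2(FC) of -0.12, within the threshold (adjusted p = 0.00487). TFB2M, its partner in initiation, had a log2(FC) of -0.31 (adjusted p = 2.64e-05). RNASEH1, which removes RNA from RNA-DNA hybrids, was the 1 upregulated gene, with a log2(FC) of 0.31 (adjusted p = 9.04e-09). It was 0.24, within the threshold, on log2(FPKM + 1) values.

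None of the 39 genes for nuclear respiratory chain subunits and cytochrome c was past the thresholds. Their log2(FC) ran from -0.21 for SDHA to 0.21 for NDUFB5, with a median of 0.03. For 17 of them the adjusted p-value was at most 0.05 within the fold threshold, 12 higher and 5 lower. By the adjusted p-value alone, 7999 of all 14893 genes tested passed, 3868 higher and 4131 lower. CYCS, cytochrome c and a classical NRF-1 target, stood at 494, 493, 495 and 485 scaled CPM in ethanol and at 551, 545, 550 and 546 in O/A. The groups did not overlap, and the log2(FC) was 0.16 (adjusted p = 2.96e-07). After quantile normalization it was 0.03, with an adjusted p of 0.283 from limma.

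Among PPAR targets and genes of fatty acid oxidation, 3 of 15 genes tested were upregulated and 1 downregulated, with a median log2(FC) of 0.04. CPT2, the carnitine palmitoyltransferase of the inner membrane, stood at 26.7, 26.3, 27.1 and 28.6 scaled CPM in ethanol and at 12.8, 14.0, 13.4 and 14.6 in O/A. All O/A libraries were far below the ethanol libraries, with a log2(FC) of -0.99 (adjusted p = 8.45e-19). ETFDH, which passes electrons from fatty acid oxidation to ubiquinone, stood at 19.6, 17.9, 20.9 and 21.3 scaled CPM in ethanol and at 31.98, 33.6, 33.9 and 34.0 in O/A. It moved the opposite way from CPT2, with a log2(FC) of 0.74 (adjusted p = 5.96e-16), which was 0.36 on log2(FPKM + 1) values.

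ACADVL, the dehydrogenase of very long acyl chains, had a log2(FC) of 0.29 (adjusted p = 4.34e-12), which was 0.22 after quantile normalization and 0.24 on both FPKM scales, within the threshold. CPT1B, the muscle form of carnitine palmitoyltransferase, had a log2(FC) of 0.52 (adjusted p = 0.00351) with overlapping groups of 41 to 75 and 61 to 81 counts (exact two-sided permutation p = 0.0571). It was 0.22, within the threshold, on log2(FPKM + 1) values. CPT1A, the form of most tissues, had a log2(FC) of -0.22, within the threshold (adjusted p = 0.000692), and was at -0.25, past it, with upper-quartile scaling and -0.26 on log2(FPKM + 0.1) values. PDK4 and ANGPTL4, widely used reporters of PPAR activity, were too low to test, with at most 2 and 4 counts in any library. Genes of this list that were too low to test also included ACADL, PLIN2, FABP3, FABP4, CD36, UCP2 and UCP3.

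Of the 12 citric acid cycle enzymes, 1 was downregulated and 11 were within the thresholds, with a median log2(FC) of 0.02. OGDH, a subunit of the oxoglutarate dehydrogenase complex, stood at 172 to 189 scaled CPM in ethanol and at 144 to 149 in O/A, with a log2(FC) of -0.31 (adjusted p = 8.98e-13). The highest of the 12 was IDH3A at 0.19. The shares past the thresholds were 55.0% of partners and cofactors (6 of 20 genes under the settings named above), 40.0% of upstream regulators and 47.4% of the mitochondrial DNA genes, beside 34.7% of all genes tested. They were 26.7% of PPAR targets and fatty acid oxidation genes, 8.33% of citric acid cycle enzymes and 0% of respiratory chain genes.

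**Figure D3:**
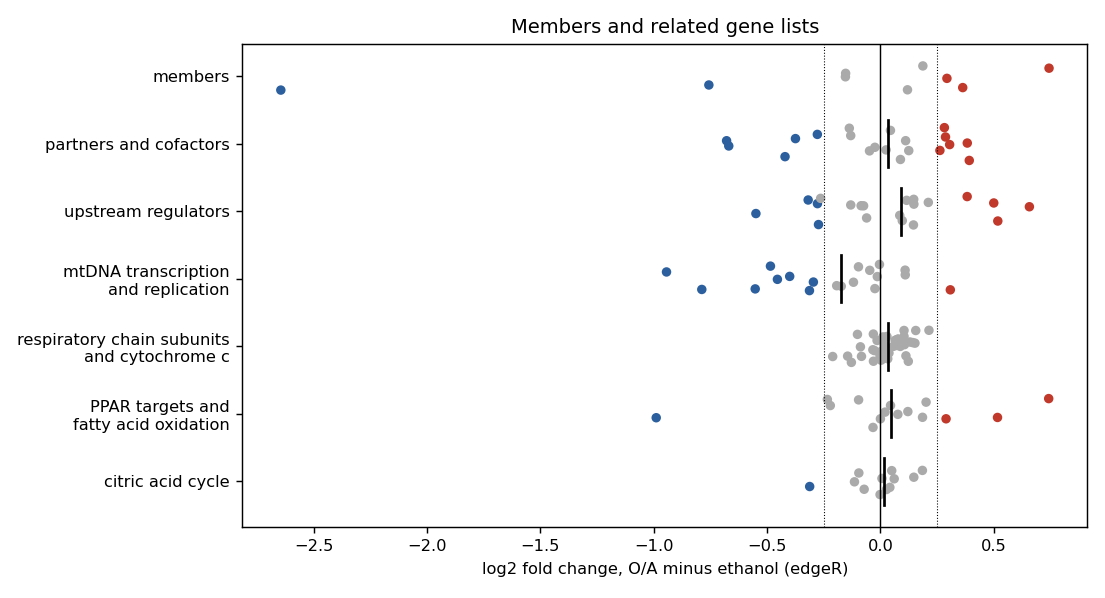
The log2(FC) of O/A against ethanol (x axis) of every tested gene of the 10 examined and of the 6 pathway lists, with 1 point a gene, a black tick at the median of each list, dotted lines at the threshold of 0.25 and vertical scatter only to separate points. The respiratory chain genes lie between -0.21 and 0.21, while the mitochondrial DNA genes reach -0.94 and have a median of -0.17.

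**Figure D4:**
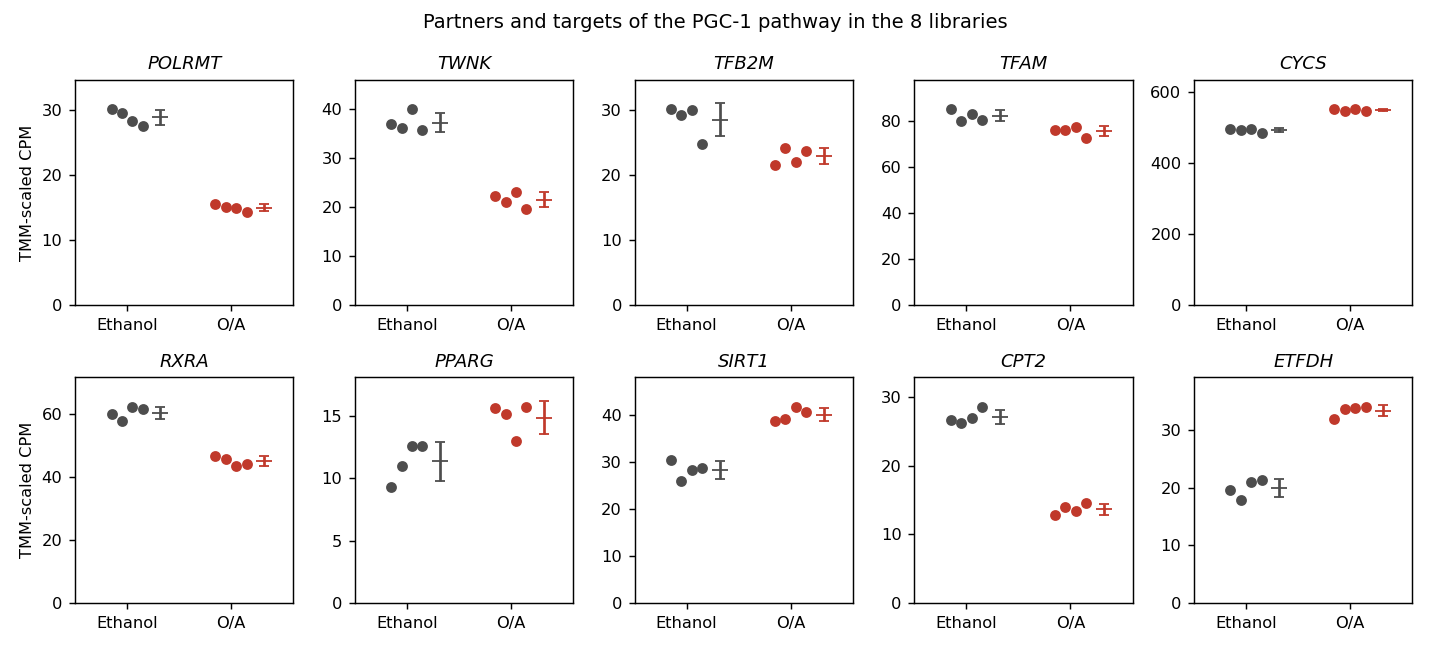
TMM-scaled CPM (y axes, from 0) of 10 of the named pathway genes, with 1 point for each ethanol (grey) and O/A (red) library and the mean and SD of the 4 libraries beside them. POLRMT, TWNK and CPT2 fell, ETFDH and SIRT1 rose, and CYCS lies between 485 and 495 in ethanol and between 545 and 551 in O/A.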

How the data were processed

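mRNA of 8 libraries was examined, 4 per condition, grouped by the sample labels. Per the labels and the study's methods, poly(A) RNA was selected with oligo(dT). Reads were aligned with HISAT2 2.0.1 to GRCh38.p13 and counted with HTSeq 0.6.1, as the submitters' processing notes list them. The Ensembl release and strand setting are not given in the sources used here. The deposited counts are not normalized, and the deposited FPKM values were within 0.005 of the count divided by exonic size and library total. The authors' own DESeq2 comparison was also deposited, with each gene's log2 fold change and its standard error, fold ratio, p-values, mean normalized signal and test score. These deposited columns were not used.

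Genes reaching 10 counts in 4 or more libraries were tested with edgeR 4.0.16 (R 4.3.3) by its robust quasi-likelihood test after TMM scaling, with Benjamini-Hochberg adjustment. Calls needed an adjusted p of at most 0.05 and an absolute log2(FC) above 0.25, the study's thresholds. The scripts were tested on simulated data. Single pathway genes were also compared by an exact two-sided permutation test (scipy 1.17.1). The 10 genes and the pathway lists were chosen with earlier results of these data known. Named are the 10 genes and the 3 highest and 3 lowest called genes of each list. A set of main known partners, regulators and targets was named whatever their values. Also named are the 5 genes most correlated with PPARGC1B among those with a symbol and a mean FPKM of at least 1 in either condition. Of the genes overlapping one of the 10 or named as its pseudogene, only some are given. IDH3A, SDHA, NDUFB5 and genes too low to test were named after their values were seen.

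Libraries of one condition differed by more than counting noise, at 1.73 to 5.33 chi-square units per degree of freedom, so none was a copy of another. Alternatives were DESeq2 1.42.0, limma 3.58.1 on log2(FPKM + 0.1), log2(FPKM + 1) and quantile-normalized log2 CPM, median-ratio and upper-quartile scaling, no count filter, a mean FPKM of at least 1, other fold thresholds, the replicate number as a block and each library left out. A search for peptide motifs in the proteins was not run.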

Additional observations from a re-analysis of the deposited data

Results flagged for a closer look

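In 4 of the 74 groups of 4 libraries examined, 1 library lay far from the other 3 by Dixon's criterion, where chance gives about 1 in 20 groups, or 3.7. None of the 4 concerned the 10 genes. MEF2A stood at 82.4 scaled CPM in O/A replicate 4 and at 84.4 to 84.7 in the other O/A libraries. TFB2M stood at 24.7 in ethanol replicate 4 and at 29.2 to 30.1 in the other ethanol libraries. RNASEH1 stood at 59.9 in O/A replicate 2 and at 63.3 to 64.0 in the other O/A libraries. CYCS stood at 485 in ethanol replicate 4 and at 493 to 495 in the other ethanol libraries. The causes were not tested.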

How the results depend on the processing

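No result changed direction under any alternative. Without a fold threshold 7999 of the 14893 genes tested passed. So did 8 of the 9 tested among the 10 genes, which added ESRRA (0.19), GABPA (0.12) and YY1 (-0.15), again as a description. Of the lists, 15 of 20 upstream regulators and 17 of 39 respiratory chain genes then passed. The same held for 9 of 15 PPAR target and fatty acid oxidation genes and 5 of 12 citric acid cycle enzymes. At an absolute log2(FC) above 1, 797 of the 14893 genes tested passed and 1 of the 9 tested among the 10, PPARGC1B. PPRC1 (-0.76), PPARD (0.74), PPARA (0.36) and GABPB1 (0.29) did not. The partners, upstream regulators, mitochondrial DNA genes, PPAR targets and citric acid cycle enzymes had 0 each. These changes follow from the thresholds themselves. Of the partners and cofactors 6 passed after quantile normalization and 6 on log2(FPKM + 1). On that last scale 3923 of the 14893 genes tested passed, with 3 of the 10 genes and 2 PPAR target and fatty acid oxidation genes. There GABPB1 was at 0.21 and PPARA at 0.23, and GABPB1 was at 0.24 on log2(FPKM + 0.1). A pseudocount shrinks differences between low FPKM values, and FPKM carries no TMM scaling. The cause beyond these was not tested. PPARGC1B could not be tested where a mean FPKM of at least 1 was required.

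With 1 library left out in turn, 4987 to 5114 genes passed, 5 to 5 of the 10 genes, 9 to 11 partners, 7 to 8 upstream regulators, 8 to 9 mitochondrial DNA genes, 0 to 0 respiratory chain genes, 4 to 5 PPAR targets and 1 to 1 citric acid cycle enzymes. The log2(FC) then ran from -2.74 to -2.55 for PPARGC1B, -0.78 to -0.73 for PPRC1, 0.16 to 0.21 for ESRRA, 0.35 to 0.40 for PPARA, 0.72 to 0.79 for PPARD, -0.21 to -0.09 for NRF1, 0.11 to 0.14 for GABPA, 0.26 to 0.34 for GABPB1 and -0.16 to -0.14 for YY1. Same-numbered libraries correlated at 0.0389, -0.0021, -0.0226 and 0.0675 in their deviations from the group means. For 2 ethanol libraries the most correlated O/A library was the same-numbered one. These values show no strong shared effect of the replicate number. They cannot show whether same-numbered cultures were run together. With the replicate block 5160 genes passed, 5117 of them shared with the 5165, and 5 of the 10 genes. Among the comparisons of single pathway genes with an alternative, 486 stayed on the same side of the threshold, 38 lost it, 6 passed it and 0 turned direction. The other fold thresholds are among these alternatives. At an absolute log2(FC) above 1, every called gene below that value was lost by definition. Depth limits PPARGC1A, PDK4 and ANGPTL4, and the O/A level of PPARGC1B rests on 34 to 53 counts per library.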
